A study of Homo sapiens and Homo sapiens
Mus musculus and Mus musculus with 200 samples.

Results

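TWIST1 was still called at 487 human genomic intervals 3 h after its degradation was started in human cranial neural crest cells. These sites were the 487 of 835 TWIST1 intervals in replicate 1 of the 3 h TWIST1FV list that overlapped an interval of replicate 2, which held 739, by at least 1 bp. Before the ligand, both TWIST1FV replicates shared 21804 TWIST1 intervals. Of these, 484 held a site left, 584 overlapped another 3 h interval, and 20736 overlapped no 3 h interval and are called lost sites here. The 2000 lost sites with the highest -log10 q in replicate 1 before the ligand, called strongest lost sites, served as the comparison of high starting occupancy, though the sites left started higher still: in replicate 1 their median -log10 q was 201.5 against 147.0 and their median fold enrichment 49.9 against 40.5. The part of this gap in the differences between the sets was not tested. Members were chosen by TWIST1 occupancy at 3 h, so their 3 h enrichment is given as a description, and the results rest on sequence, on other lists and on H3K27ac.

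The study profiled chromatin by ChIP-seq in cranial neural crest cells differentiated from the H9 human embryonic stem cell line. In the TWIST1FV line TWIST1 carries a tag that lets the small molecule dTAGV-1 mark the protein for destruction; the line is 1 clone, and both of its replicates come from it. Parallel lines carried the tag on ALX1 (ALX1FV), on ALX1 in cells without ALX4 (ALX1FV ALX4-), and on PRRX1 (PRRX1FV), each as 2 clones, 1 per replicate, and on MSX1 (MSX1FNV), whose replicates carry the same clone label. Unedited cells (WT) received the same 500 nM ligand. H3K27ac was measured at 0, 3 and 24 h in all 6 lines with 2 replicates each. TWIST1 lists came from TWIST1FV and WT at 0 and 3 h, from ALX1FV ALX4- at 0 h and from the lymphoblast line RS4;11. V5 lists, read through the V5 epitope of the tag, came from the tagged homeodomain lines, and AP2a lists from neural crest cells with 2 antibodies. HEK293 cells, a human embryonic kidney line, were transfected and harvested at 24 h. They received TWIST1 or NEUROD1 plasmids with or without ALX4, TWIST1 with PRRX1a, PRRX1b, MSX1 or PHOX2A, or the plasmid pUC19 alone. TWIST1 was wild type, carried the substitution L138F or L138Y, or carried a loop or other stretch named for NEUROD1, NEUROG2, HAND2 or TAL1. Mouse cranial neural crest cells were the spike-in of the TWIST1FV and WT H3K27ac samples, and spike-in reads were not analysed here.

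TWIST1 is a basic helix-loop-helix factor that binds E-boxes, short sequences of the form CANNTG, as a dimer with E-proteins such as TCF3, TCF4 and TCF12. In face and limb mesenchyme it also binds a composite sequence in which an E-box and a homeodomain site lie at a fixed spacing, together with homeodomain factors of the ALX, MSX and PRRX families. AP2a, encoded by TFAP2A, is a transcription factor of the neural crest. H3K27ac is a histone mark found at active enhancers and promoters.

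H3K27ac at start sites matched the labelled cell type. All 12 of the cranial neural crest genes checked carried at least 2 CPM per kb (CPM, counts relative to the scaled total of the library) in every line at 0 h, among them TFAP2A, ALX4 and SNAI2. None of 4 neural progenitor genes did, SOX2 and PAX6 among them, and the summed level of those 4 stayed between 1.96 and 4.30 in all 18 groups, against 666 to 987 for the neural crest genes. Of the pluripotency genes, DPPA4 and LIN28A had rows and both carried the mark. Each H3K27ac library held between 5137169 and 9173063 counts.

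The sites are shown first by sequence, since the composite spacing can be seen in the letters themselves. Letters were read from hg38 within 100 bp of each summit. The composite motif searched was an E-box (CAGATG or its reverse complement CATCTG, the palindrome CAGCTG, or the palindrome CATATG) and a homeodomain site (the palindrome TAATTA, or TAATTG or its reverse complement CAATTA), in either order and on both strands, with 4 bp between them. It was present at 31 of the 487 sites left (6.37%, 95% Wilson interval 4.52 to 8.89%). It was present at 2.72% of lost sites (2.51 to 2.95%) and 3.65% of strongest lost sites (2.91 to 4.56%), and at 0 of 974 windows 1000 bp to either side of the sites left. The interval for the sites left overlapped that of the strongest lost sites only at its edge and lay above that of all lost sites. The E-box was CAGCTG at 12 of the 31 sites, CAGATG and CATCTG at 8 each and CATATG at 3. The homeodomain site, read in the E-box-first direction, was CAATTA at 14, TAATTA at 12 and TAATTG at 5. Composite sequences are printed with both parts in capitals, 5′ to 3′, E-box first, to show the constant spacing between differing parts; those at BRD7 and RBFOX2 belong to pairs of sites, and the others were chosen after their letters were seen.
PIP4K2B, chr17:38789330-38789373, minus strand: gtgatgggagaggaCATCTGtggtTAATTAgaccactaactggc
SCOC, chr4:140237819-140237862, minus strand: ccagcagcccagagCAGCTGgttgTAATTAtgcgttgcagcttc
EMX2, chr10:117503418-117503461, plus strand: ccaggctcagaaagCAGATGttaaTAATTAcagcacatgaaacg
GRK5, chr10:119413229-119413272, plus strand: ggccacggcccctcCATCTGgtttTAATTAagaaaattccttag
TOP1, chr20:40897351-40897394, plus strand: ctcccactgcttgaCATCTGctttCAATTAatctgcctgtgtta
SEPTIN9, chr17:77433858-77433901, plus strand: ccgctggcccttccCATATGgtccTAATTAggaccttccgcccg
BRD7, chr16:50425775-50425818, minus strand: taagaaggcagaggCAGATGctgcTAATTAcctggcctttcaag
RBFOX2, chr22:36018038-36018081, minus strand: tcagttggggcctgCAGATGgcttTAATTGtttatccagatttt
Each is named by the nearest protein-coding start. EMX2 encodes a homeodomain factor. A further composite site lies in TCF4, the gene of an E-protein.

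The 4 bp spacing stood out among all spacings tried. When the gap between the parts was varied from 0 to 20 bp, 31 sites held the 4 bp arrangement and no other gap was held by more than 4 sites, the next being 18 bp. The same spacing led in both sets of lost sites. Any of the 4 E-boxes was present at 78.6% of sites left (interval 74.8 to 82.1%). It was present at 71.7% of lost sites (71.0 to 72.3%) and 78.0% of strongest lost sites (76.1 to 79.8%). By type, CAGATG or CATCTG was present at 56.5% of sites left (52.0 to 60.8%) and 14.3% of the windows beside them. The shares were 47.5% of lost sites (46.8 to 48.1%) and 53.7% of strongest lost sites (51.5 to 55.9%). CATATG was present at 7.60% of sites left (5.56 to 10.3%) and 9.82% of lost sites (9.42 to 10.2%). At strongest lost sites its share was 12.7% (11.3 to 14.2%), an interval that lay above that of the sites left. The E-box type CACCTG or CAGGTG was present at 10.7% of sites left (interval 8.24 to 13.7%), 17.3% of lost and 19.8% of strongest lost sites (18.1 to 21.6%), and it was present in 20.5% of the windows beside the sites left.

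**Figure D1:**
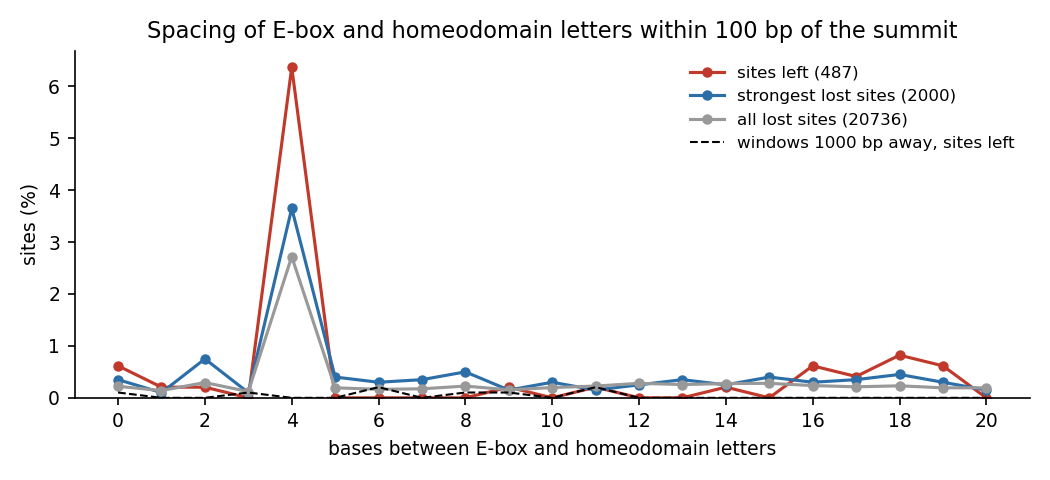
Share of sites (vertical axis, %) with E-box and homeodomain letters separated by each gap (horizontal axis, bp), for the sites left, the strongest lost sites, all lost sites and the windows 1000 bp from the sites left. All 3 sets peak at 4 bp, at 6.37%, 3.65% and 2.72%, and no peak stands in the neighbouring windows.

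A pair of E-boxes 5 bp apart, the other arrangement searched, was present at 5 sites left (1.03%, interval 0.44 to 2.38%), 1.39% of lost sites and 48 of the 2000 strongest lost sites (interval 1.81 to 3.17%). The intervals overlapped. Those at ARID3A, ITGB3, CDH11 and SH2D3C are printed with both E-boxes in capitals; ITGB3 encodes an integrin chain and CDH11 a cadherin of mesenchyme.
ARID3A, chr19:933410-933454, plus strand: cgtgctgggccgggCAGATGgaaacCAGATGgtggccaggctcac
ITGB3, chr17:47275767-47275811, plus strand: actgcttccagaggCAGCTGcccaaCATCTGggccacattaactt
CDH11, chr16:65272171-65272215, plus strand: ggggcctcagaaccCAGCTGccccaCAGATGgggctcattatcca
SH2D3C, chr9:127768181-127768225, plus strand: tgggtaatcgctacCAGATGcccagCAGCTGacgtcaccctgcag
The site of highest rank, beside DUSP7, held neither arrangement and none of the 4 E-boxes. The bases within 50 bp of its summit hold 2 other CANNTG sequences, in capitals below.
DUSP7, chr3:52068284-52068384, plus strand: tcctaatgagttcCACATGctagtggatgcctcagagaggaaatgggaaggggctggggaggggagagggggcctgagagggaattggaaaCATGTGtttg

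Base composition also differed. The median GC content within 100 bp of the summit was 51.7% at sites left and 46.8% at strongest lost sites, and the mean number of CpG dinucleotides was 4.64 against 2.73. The palindrome GCCNNNGGC, the textbook recognition sequence of AP2 factors, was present at 74 sites left (15.2%, interval 12.3 to 18.7%), 10.0% of lost sites (9.61 to 10.4%) and 8.65% of strongest lost sites (7.50 to 9.96%). In the windows beside the sites left it was present at 6.47%.

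The sites were among the most strongly occupied before the ligand. Their median rank by -log10 q at 0 h was 835 of 33479 intervals in replicate 1 and 774 of 25034 in replicate 2, and 79.9% and 83.4% of them were among the first 2000. Within the authors' lists their median fold enrichment was 49.9 and 40.9 before the ligand, then 9.35 and 9.36; the lists were called separately, so the values are set side by side only. At the edge of the rule, the lowest -log10 q of a site left was 1.98 in replicate 1 and 2.18 in replicate 2. Intervals called in 1 replicate alone had a median of 6.54 (348 intervals of replicate 1) and 8.00 (252 of replicate 2), against 14.6 and 17.1 for the sites left.

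The 10 sites of highest rank at 3 h lay nearest to DUSP7, RBFOX2, NID2, NKD1, ARID3A, S1PR2, CAPZB, CD248, PSD2 and GNG8, and PDGFRB was next. DUSP7 encodes a phosphatase of MAP kinases, RBFOX2 a splicing regulator, NID2 a basement membrane protein and NKD1 an inhibitor of WNT signalling. The DUSP7 site (chr3:52067889-52068722, intergenic) was enriched 49.7-fold and 44.6-fold at 3 h, from 89.9-fold and 110-fold at 0 h. The RBFOX2 site (chr22:35971415-35972114, intronic) was at 29.4 and 42.9 after 3 h, from 89.4 and 77.2 before. The NKD1 site (chr16:50467791-50468291) lies in no protein-coding gene, and its intron is that of a gene of another type. It was at 30.2 and 25.7, from 121 and 83.1. All 10 carried AP2a with both antibodies. The PDGFRB site (chr5:150158112-150158619), 2481 bp from the start of this platelet-derived growth factor receptor gene, was at 23.7 and 20.2, from 64.8 and 38.0.

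By GENCODE 44, with genes of every type counted and not only protein-coding ones, 288 sites left (59.1%) had their summit in an intron, 167 (34.3%) between genes, 19 in an exon and 13 in a UTR. At 60 of 487 sites (12.3%, interval 9.69 to 15.5%) the summit lay within 1000 bp of a protein-coding start site, against 10.4% of lost and 5.85% (4.90 to 6.97%) of strongest lost sites. The median distance to a start was 22785 bp, against 38624.5 bp for strongest lost sites.

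How many sites left stand alone depends on the size of the set, so the groups are given as a description. At a distance of up to 50000 bp between summits, 438 stood alone, 46 formed 23 pairs and 3 formed 1 group, inside DNM1, which encodes dynamin 1. Pairs lay at RBFOX2, at BRD7 and NKD1, at DNMT1 and S1PR2 and at CXXC5 and PSD2, to name those of best rank. Counted against one common set, the sites left had a median of 2 and a mean of 2.65 other 0 h TWIST1 sites within 50000 bp, and 13.8% had none. Strongest lost sites had a mean of 2.25, and 20.8% had none. Nearest genes were mostly hit once: 412 genes had 1 site, 30 had 2 and 5 had 3 (ZFP36L2, ETS1, DNM1, RAD51B and FRMD4A).

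Gene lists were compared by the share of sites nearest to a listed gene. Of 26 basic helix-loop-helix and related factors, 8 were nearest to 10 sites left (2.05%), against 0.74% of lost and 0.90% of strongest lost sites. The E-protein genes TCF12 (2 sites), TCF3 and TCF4 were among these 8, with EBF2 (2 sites), EBF3, MYCN, HES1 and HEY1. Of 41 neural crest and head mesenchyme factors, 7 were nearest to 9 sites (1.85%, against 1.69% of lost and 2.25% of strongest lost sites): ETS1 with 3 sites, and ZEB2, TBX3, TWIST2, SOX9, SNAI1 and SOX6 with 1 each. Homeodomain partners had 5 sites (1.03%, against 0.48% and 0.65%), EMX2, MSX1 and PRRX1 among them. Adhesion and matrix genes had 10 (2.05%, against 1.87% and 2.50%), among them ROBO1 with 2 and COL1A1. Signalling genes had 7 (1.44%, against 2.29% of lost sites and 68 of 2000 strongest lost sites), among them PDGFRB, AXIN2, PTCH1, NOTCH1 and BMP4. Neuronal and glial genes had 2 (0.41%, against 0.26% and 0.35%).

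AP2a was called by both antibodies at 334 sites left (68.6%, interval 64.3 to 72.6%), against 22.7% of lost and 41.1% (39.0 to 43.3%) of strongest lost sites. The Cell Signaling antibody covered 76.4% of the sites and the Novus Bio antibody 72.1%. Among the sites left that carried AP2a, the composite motif was present at 14 of 334 (4.19%, interval 2.51 to 6.91%) against 17 of the 153 without it (11.1%, 7.05 to 17.1%).

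Tagged homeodomain factors were called at many of the sites although their lists were short. The ALX1FV V5 lists held 1389 and 376 intervals, and 196 sites left (40.2%) overlapped at least 1 of them, against 28.3% (26.4 to 30.3%) of strongest lost sites. In ALX1FV ALX4-, where ALX4 is missing, the lists held 920 and 1116 intervals and 300 sites left (61.6%, 57.2 to 65.8%) overlapped at least 1, against 29.6% of strongest lost sites. Seen from the lists, 24.2% and 20.0% of the ALX1FV ALX4- V5 intervals and 12.7% and 21.8% of the ALX1FV V5 intervals overlapped a site left. MSX1FNV V5 was called at 66 sites (13.6%, against 4.05%), from lists of 50 and 278 intervals. The PRRX1FV V5 lists held 2 and 1 intervals, and 1 site, nearest to SLIT3, overlapped. Replicates of the same line differed in list length, and calls in both ALX1FV replicates were made at 62 sites left (12.7%, against 5.30% of strongest lost sites).

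**Figure D2:**
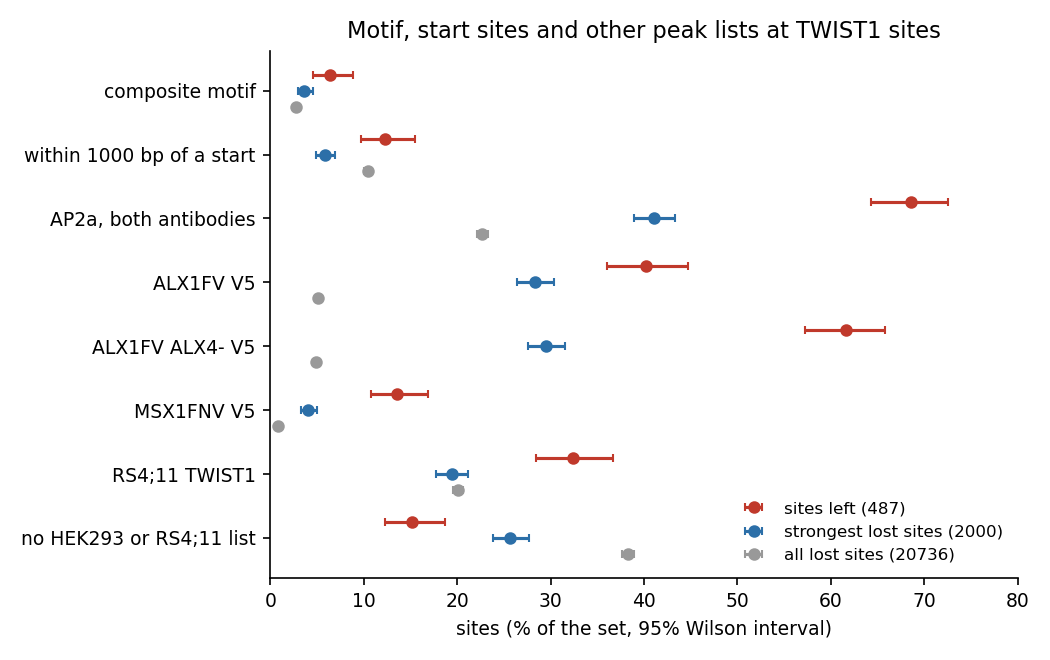
Share of each set (horizontal axis, %, with 95% Wilson intervals) that held the composite motif, lay near a start or overlapped another peak list. The sites left lie above the strongest lost sites for AP2a (68.6% against 41.1%) and for each V5 list, and below them for sites in no HEK293 or RS4;11 list (15.2% against 25.7%).

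All 487 sites left were present in both WT replicates at 0 h and at 3 h, in the neural crest TWIST1 list and in both ALX1FV ALX4- TWIST1 lists. These lists held 43274 to 59282 intervals, and of the strongest lost sites 100% were present in WT at 0 h and 99.8% in ALX1FV ALX4-. The sites left had a median width of 404 bp and the strongest lost sites, as called at 0 h, 968 bp. When each interval had to cover 50% of the other, 9.24% of the sites left were matched in WT, 15.8% in ALX1FV ALX4-, 28.7% by both AP2a antibodies and 11.3% in RS4;11. In RS4;11 lymphoblasts, a blood cell line, 158 sites left (32.4%, interval 28.4 to 36.7%) were present, against 20.1% of lost and 19.4% (17.7 to 21.2%) of strongest lost sites. Of the sites left with AP2a, 37.4% (32.4 to 42.7%) were in RS4;11, against 21.6% (15.8 to 28.7%) of those without.

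In HEK293 cells a larger share of the sites left was called in each wild-type TWIST1 library with ALX4 than in any without, though 3 libraries per arm cannot pass the usual threshold. V5-tagged wild-type TWIST1 was called at 31.0%, 27.7% and 38.2% of them without ALX4 and at 53.0%, 62.0% and 64.9% with ALX4, so the libraries did not overlap. The means were 32.3 ± 5.36% and 60.0 ± 6.21% (SD, n = 3 each; exact permutation test, two-sided, p = 0.1, the smallest that 3 against 3 libraries allow). The strongest lost sites went from 17.3 ± 4.85% to 41.2 ± 6.77% (n = 3 each; exact permutation p = 0.1). The difference was 27.7 percentage points at the sites left and 23.9 at the strongest lost sites. List lengths ran from 22465 to 56014 intervals without ALX4 and from 29430 to 65005 with it. In replicate 1 the lists were of similar length, 30471 without ALX4 and 29430 with it, and the share was higher with ALX4. In replicates 2 and 3 the list with ALX4 was longer, at 41369 against 22465 and 65005 against 56014. There the share rose by more than in replicate 1. The part of list length in these differences was not tested. At 69 sites left (14.2%) the call was made in 3 of 3 libraries with ALX4 and in 0 of 3 without, and at none the other way round; among strongest lost sites 13.3% and 0.75% did so.

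Over all plasmids, 17 of 19 pairs had the higher share with ALX4, with a median difference of 11.3 percentage points. TWIST1 with the substitution L138F went from 38.0% to 70.4% and with L138Y from 29.6% to 61.8%. The pairs that did not were NEUROD1, a neuronal factor of the same class (5.54% without and 3.90% with ALX4), and TWIST1 with the NEUROD1 loop (14.2% and 13.6%). The pairs other than wild-type TWIST1 have 1 library per arm. With the TWIST1 antibody, TWIST1 alone was called at 28.1% of the sites, with ALX4 at 46.6%, with PRRX1b at 37.4%, with PHOX2A at 35.1%, with PRRX1a at 29.8% and with MSX1 at 21.8%, from lists of 15395, 12505, 17317, 7023, 12288 and 2498 intervals in that order. The V5 list of cells given the plasmid pUC19 overlapped 1 site left, nearest to NFATC4. In no HEK293 or RS4;11 list were 74 sites left (15.2%), against 25.7% of strongest lost and 38.3% of lost sites.

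**Figure D3:**
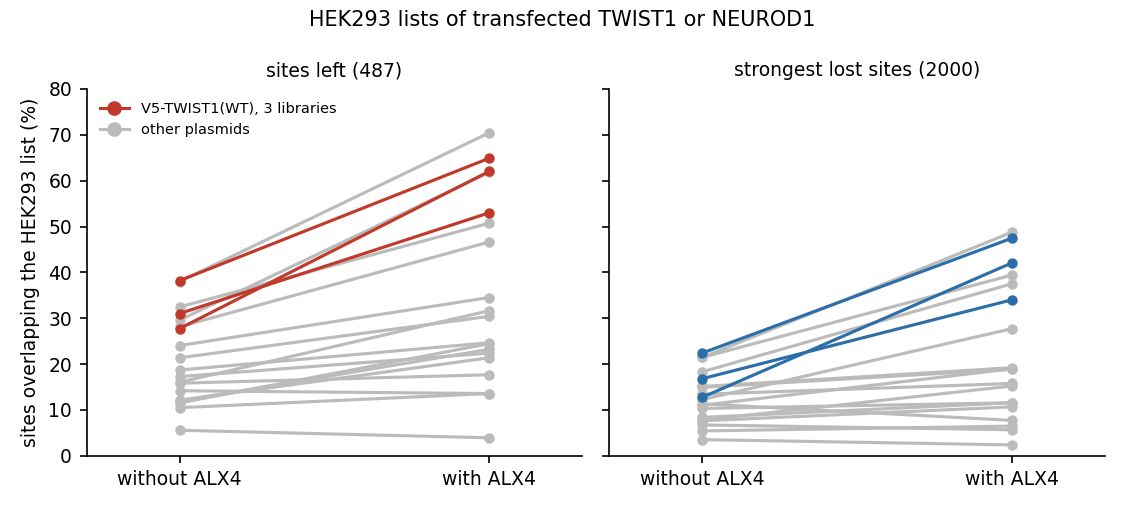
Share of sites left (left panel) and strongest lost sites (right panel) overlapping the HEK293 list, in % (vertical axis), without and with ALX4; each line joins the 2 arms of a plasmid, coloured for the 3 wild-type V5-TWIST1 libraries. At the sites left these lie between 27.7% and 38.2% without ALX4 and between 53.0% and 64.9% with it.

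H3K27ac was then followed over the 509 ATAC rows, merged accessible regions, that overlapped a site left; every one of the 487 sites had a row. The sites left carried a high level of the mark: in WT at 0 h the median was 67.6 CPM per kb, against 39.9 at strongest lost sites, 12.9 at lost sites and 1.64 in rows with no TWIST1 interval in the WT 0 h or TWIST1FV lists. Changes are relative to the scaled library total, so a change of the mark over the whole genome was not measured. Rows with no TWIST1 interval had median log2 changes of 0.21 at 3 h and 0.28 at 24 h in TWIST1FV. Changes were tested with edgeR's quasi-likelihood test at a Benjamini-Hochberg false discovery rate under 0.05, over all rows that passed the count filter.

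After TWIST1 degradation the fall of the mark passed the threshold at a minority of the sites left and at most of the strongest lost sites. Rows counted here and below as fallen or risen are those that passed. Of the tested rows at the sites left, 76.6% had a log2 change below 0 at 3 h and 72.4% at 24 h. At the strongest lost sites these shares were 95.7% and 97.2%, and over all rows tested 48.7% and 48.1%. At 3 h, of 508 tested rows (1 did not pass the filter) 62 fell and 3 rose (12.8% called, against 5.29% of all 123361 rows tested, with 4.28% lower and 1.01% higher). At 24 h, 122 fell and 12 rose (26.4%, against 13.8% of all rows, with 9.49% lower and 4.28% higher). Of the 62 rows that fell at 3 h, 55 (88.7%) were also among the 122 at 24 h, of which they made up 45.1%. At the strongest lost sites 1359 of 2436 tested rows fell and 0 rose at 3 h, and 1925 fell and 7 rose at 24 h. The median log2 change was -0.24 at 3 h and -0.29 at 24 h at the sites left, with quartiles of -0.54 and -0.01 and of -0.63 and 0.03. It was -1.19 and -1.87 at the strongest lost sites and 0.02 and 0.03 over all rows tested. When libraries were scaled by their total count alone the medians moved up together, by about the same amount at the sites left and over all rows, to -0.15 and 0.11 at 3 h and to -0.16 and 0.16 at 24 h. Relative to all rows the sites left stood at -0.27 under both scalings at 3 h and at -0.32 under both at 24 h. The split of calls at 24 h became 86 lower and 22 higher.

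Markers of other cell types differed between these times in TWIST1FV. The summed level at the starts of the epithelial genes CDH1 and EPCAM was 8.47, 14.5 and 18.5 CPM per kb at 0, 3 and 24 h, against 6.39, 7.34 and 5.38 in WT. The pluripotency genes DPPA4 and LIN28A summed to 121, 151 and 159, against 118, 116 and 129 in WT, and the 12 cranial neural crest genes to 925, 909 and 856. Their part in the change at the sites left was not tested.

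The TWIST1FV replicates come from 1 clone, and p-values measure only the spread between these samples. The counts of calls depended on single libraries. Without TWIST1FV 0 h replicate 1 the calls at sites left were 36 at 3 h and 84 at 24 h, and without 24 h replicate 2 they were 67.

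**Figure D4:**
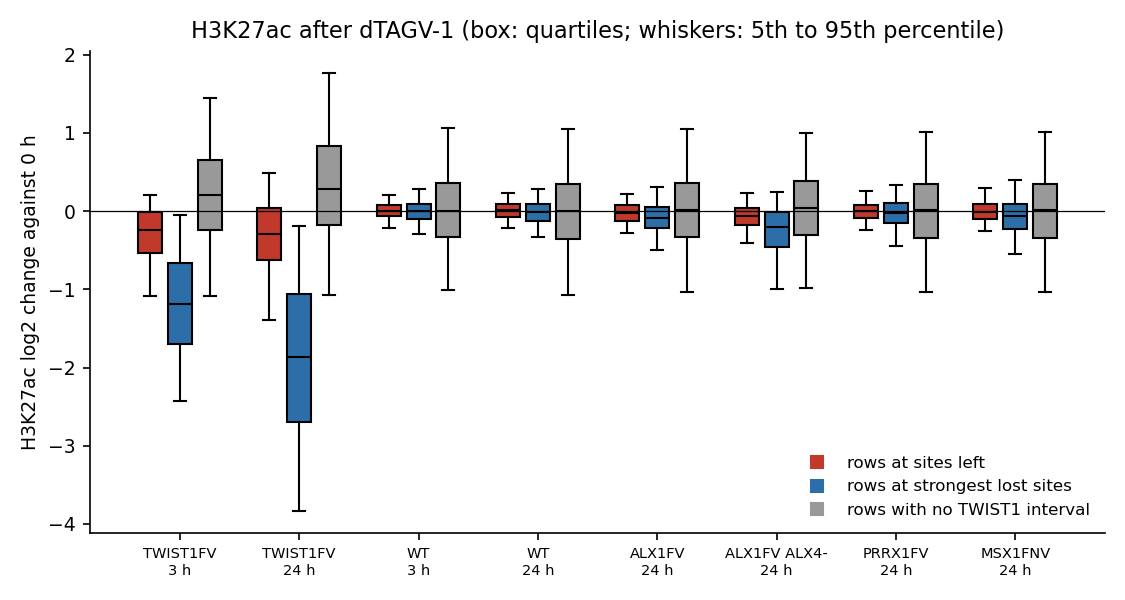
Log2 change of H3K27ac against 0 h (vertical axis) in rows at sites left, at strongest lost sites and with no TWIST1 interval, by line and hours of dTAGV-1 (horizontal axis); boxes are quartiles, whiskers the 5th and 95th percentiles of rows. In TWIST1FV the sites left have medians of -0.24 and -0.29 and the strongest lost sites -1.19 and -1.87, while in the other lines the medians of the sites left lie between -0.06 and 0.02.

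The gap to the strongest lost sites was present at every level of the mark. Rows were divided at 49.1 and 88.1 CPM per kb in WT at 0 h, which split the rows of the sites left evenly. In the low, middle and high band the median log2 change of the sites left at 3 h was -0.33, -0.25 and -0.21, and that of the strongest lost sites -1.23, -1.18 and -0.92. The share that fell was 7.69%, 12.4% and 16.5% at the sites left and 50.4%, 66.0% and 60.4% at the strongest lost sites. At 24 h the medians were -0.32, -0.29 and -0.26 against -1.97, -1.82 and -1.33.

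Among the sites left, rows at the sites ranked highest by TWIST1 at 3 h had the smallest median change. For ranks 1 to 162, 163 to 324 and 325 to 487 the median log2 change was -0.14, -0.27 and -0.38 at 3 h, then -0.13, -0.34 and -0.42. The rows that fell at 24 h were 20 of 175, 46 of 168 and 56 of 165 in the same order. None of the 12 rows at the 10 sites of highest rank was called at either time, with log2 changes between -0.25 and 0.25 at 3 h and between -0.33 and 0.29 at 24 h. The RBFOX2 row, for example, had 151 and 132 CPM at 0 h, 167 and 171 at 3 h and 149 and 157 at 24 h, and the groups overlapped at 24 h (log2 change 0.21, SE 0.13, adjusted p = 0.44 at 3 h; 0.11, SE 0.13, adjusted p = 0.66 at 24 h, edgeR).

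Rows with and without the composite motif fell at 24 h in 9 of 32 and 113 of 476 cases, with median log2 changes of -0.26 and -0.29. With AP2a by both antibodies 79 of 349 fell and without it 43 of 159, with medians of -0.24 and -0.34. With and without ALX1FV V5 the medians were -0.25 and -0.30. Rows with MSX1FNV V5 fell in 8 of 69 cases and those without in 114 of 439, with medians of -0.10 and -0.32. Present in RS4;11 or not, the medians were -0.24 and -0.30. At 3 h, 1 of the 69 rows with MSX1FNV V5 fell, against 61 of 439.

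The largest fall was in an intronic row of SLC9A9 whose nearest start, 194753 bp away, is that of the sulfotransferase gene CHST2 (chr3:143313539-143315009). It had 154 and 142 CPM at 0 h, 41.8 and 41.1 at 3 h and 28.7 and 23.5 at 24 h, a log2 change of -1.88 (SE 0.17, adjusted p = 1.2e-05, edgeR) and then -2.50 (SE 0.17, adjusted p = 1.1e-07). The groups did not overlap, and in WT the same row changed by 0.08 and 0.05. The other falls named by size at 3 h were nearest to the starts of FGGY (-1.87), SORCS1 (-1.81), LAMA3 (-1.80), NUBPL (-1.69) and RNF175 (-1.66). All but FGGY, at -0.76, were also called at 24 h. Such a name gives the nearest protein-coding start and not a host gene. The SORCS1 row is intergenic, and the site of the NUBPL row lies in no protein-coding gene. The FGGY row held 10.0 and 7.0 CPM at 0 h, and its 3 h call was lost without 0 h replicate 1 (adjusted p = 0.11) or 3 h replicate 2 (adjusted p = 0.071). At 24 h the largest after CHST2 were nearest to PRR5L (-2.40), MFAP2 (-1.98), FANCL (-1.94) and ADAMTS14 (-1.92), and to NUBPL, whose row went from 124 and 87.3 CPM to 32.0 and 20.4. MFAP2 encodes a protein of elastic microfibrils and ADAMTS14 a protease that processes procollagen. The PRR5L row (chr11:36342911-36343728, intronic) went from 50.6 and 43.8 CPM to 18.4 and 23.6 and then to 7.1 and 10.9.

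Few rows rose. The 3 that rose at 3 h were nearest to the starts of TBL1XR1 (log2 change 0.98), FILIP1 (0.82) and IER2 (0.77), and all 3 were called at 24 h as well. Of the 2 sites left named by TBL1XR1, the closer lies 361957 bp from its start. Among the rows that passed at 24 h, the largest rise was between genes, 1039305 bp from the nearest start, that of ZEB2 (chr2:145559711-145561110). ZEB2 encodes a repressor of epithelial genes. The row had 20.6 and 17.3 CPM at 0 h, 19.3 and 15.8 at 3 h and 46.1 and 38.1 at 24 h (log2 change 1.16, SE 0.23, adjusted p = 0.0019, edgeR), and only the 24 h libraries were high. In TWIST1FV, FILIP1 (1.07), ETS1 (1.00), PRKCI (0.87), ATP11B (0.75) and SLC44A3 (0.72) followed among the rows that passed. Without TWIST1FV 0 h replicate 2 the 24 h calls at FILIP1, PRKCI, ATP11B and SLC44A3 were lost, and so were the 3 h calls at TBL1XR1 and FILIP1. Other single libraries also ended the 3 h call at FILIP1 (3 h replicate 1), and the 24 h calls at PRKCI (24 h replicate 1), ATP11B (24 h replicate 2) and SLC44A3 (0 h replicate 1, 24 h replicate 2).

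At ETS1, which encodes a factor of early neural crest, the sites went in both directions. The intergenic row chr11:128246280-128247279 had 35.8 and 31.2 CPM at 0 h and 59.8 and 74.1 at 24 h (1.00, SE 0.18, adjusted p = 0.0011, edgeR), while an intronic row (chr11:128497275-128498088) went from 84.3 and 81.6 to 57.5 and 53.4 (-0.58, SE 0.16, adjusted p = 0.019). The remaining ETS1 row was not called. At DNM1 the row that holds 2 of its sites had log2 changes of -0.02 and 0.00, and the row of its remaining site fell by 0.79 and by 1.08.

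Rows at the listed genes were mostly not called. For comparison, 12.2% of all tested rows at sites left fell at 3 h and 24.0% at 24 h, and of all rows tested 4.28% and 9.49%. Of 10 rows at helix-loop-helix and related factors, 0 were called at 3 h and 2 fell at 24 h, at TCF3 (-0.63) and EBF2 (-1.23). TCF3, an E-protein gene, had 78.8 and 83.1 CPM at 0 h and 58.9 and 45.5 at 24 h. The rows at TCF4 and TCF12 had log2 changes between -0.50 and -0.13 at 24 h and did not pass. Of 10 rows at neural crest factors, 2 fell (SOX9, -0.90, and ETS1) and 2 rose (ZEB2 and ETS1) at 24 h, and none was called at 3 h. Of 10 adhesion and matrix rows, TNS3 fell at both times (-0.57 and -0.82) and TNS1 at 24 h (-1.30). The 8 rows at signalling genes and the 5 at homeodomain partners had no call at either time, PDGFRB at -0.05 and -0.12, MSX1 at 0.24 and 0.41 and PRRX1 at -0.11 and 0.00 among them. Of 2 rows at neuronal and glial genes, 0 were called at 3 h and 1 fell at 24 h. With 2 to 10 rows per list, these counts are given as a description.

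In the other lines at most 1 of the same rows was called by edgeR without a block. In WT 0 of 509 rows were called at 3 h and 0 at 24 h by edgeR, as among all 120860 rows tested, with 6 and 15 rows under an unadjusted p of 0.05 and 0 calls by DESeq2. The median log2 change was 0.01 and 0.02. In ALX1FV the medians were -0.01 and -0.03 with 0 calls (1 and 3 rows under an unadjusted p of 0.05, 0 by DESeq2), and in PRRX1FV -0.01 and 0.00 with 0 calls (9 and 25 rows, 0 by DESeq2; 0.000827% of all rows at 24 h). In MSX1FNV they were 0.01 and -0.01 with 0 calls (20 and 27 rows; 0.00179% and 0.00448% of all rows), and DESeq2 called 1 row at 24 h. In ALX1FV ALX4- the medians were -0.04 and -0.06, 0 rows were called at 3 h (21 under an unadjusted p of 0.05, 0 by DESeq2) and 1 at 24 h, against 0.0279% of all rows. With the replicate number as a block, which pairs the clones of that line, 3 rows were called at 24 h.

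That 1 row lies in an intron of LAMA3, which encodes a laminin chain (chr18:23772235-23773173). In ALX1FV ALX4- it had 20.9 and 29.7 CPM at 0 h and 8.8 and 11.3 at 24 h (log2 change -1.34, SE 0.22, adjusted p = 0.0097, edgeR). Without 24 h replicate 1 or 2 the call was lost (adjusted p = 0.59 and 0.23). In TWIST1FV it had 90.6 and 80.6 at 0 h, 28.5 and 22.2 at 3 h and 46.1 and 29.5 at 24 h (-1.80 and -1.17). In WT it lay between 74.8 and 94.2 CPM in all 6 libraries. The site was among the strongest TWIST1 sites before the ligand, at ranks 12 and 34, and overlapped AP2a by both antibodies and the V5 lists of ALX1FV and ALX1FV ALX4-.

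**Figure D5:**
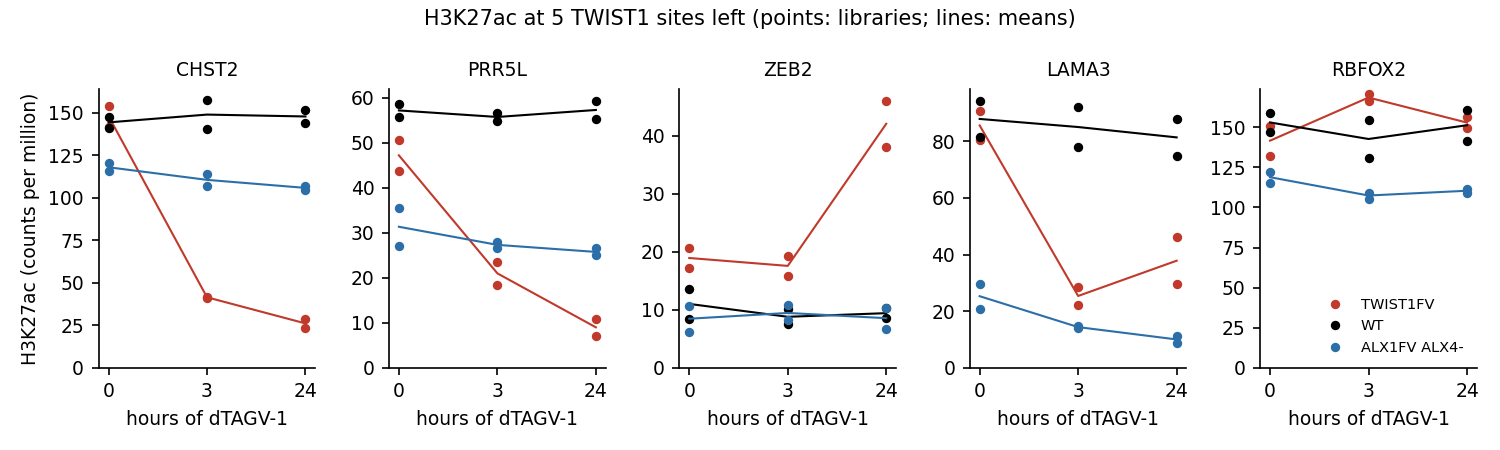
H3K27ac in CPM (vertical axis, from 0) at 0, 3 and 24 h of dTAGV-1 (horizontal axis) at 5 sites left in TWIST1FV, WT and ALX1FV ALX4-; points are libraries and lines their means. CHST2, PRR5L and LAMA3 fall in TWIST1FV, ZEB2 rises in TWIST1FV to 46.1 and 38.1 at 24 h, and RBFOX2 in TWIST1FV lies between 132 and 171.

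The difference in response between TWIST1FV and WT was tested as an interaction in 1 fit of all 36 libraries. At 3 h it passed at 50 of 509 rows, 49 of them with the lower change in TWIST1FV (9.82%, against 2.35% of all 174645 rows, with 2.1% lower). At 24 h it passed at 99 rows, 94 of them lower (19.4%, against 6.07%, with 4.92% lower). No row passed with a sign opposite to its change in TWIST1FV. Of the rises named at 3 h, IER2 passed (edgeR interaction), and TBL1XR1 (adjusted p = 0.094) and FILIP1 (adjusted p = 0.26) did not. Of the largest rises at 24 h, ZEB2, FILIP1, ETS1 and ATP11B passed. PRKCI (adjusted p = 0.30) and SLC44A3 (adjusted p = 0.15, edgeR interaction) did not. Without TWIST1FV 3 h replicate 2 the count at 3 h was 28, and without 24 h replicate 2 that at 24 h was 57.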

How the data were processed

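ChIP-seq peak lists and H3K27ac read counts were analysed as deposited. Per the submitters' processing notes the tools included Bowtie2 2.4.1, SAMtools 1.10, MACS2 2.2.7.1 and deepTools 3.5.0, with hg38 and mm39. The deposited narrowPeak lists, 1 per sample, give the authors' fold enrichment (a ratio), -log10 p and -log10 q, and a score derived from -log10 q; all intervals had q under 0.05. The depth behind a peak list is unknown. The authors deposited H3K27ac as raw counts over 213151 ATAC rows in 36 libraries (5137169 to 9173063 per library); of counts of at least 20, 76.7 to 81.5% were even numbers. Whether both mates of a read pair were counted is not given in the sources used here; if they were, counts exceed the number of fragments. Mouse lists (mm39) were not used here.

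An interval listed with several summits was kept once, with the summit of highest -log10 p. Lists were overlapped by at least 1 bp (Python 3.11.15). Genes are the nearest protein-coding starts in GENCODE 44. Motifs were searched within 100 bp of each summit in hg38. Shares carry 95% Wilson intervals, which cover counting error only. H3K27ac was tested with edgeR 4.0.16 (R 4.3.3; TMM, filterByExpr, quasi-likelihood, Benjamini-Hochberg over all rows tested, threshold 0.05) in each line's 6 libraries, and the TWIST1FV minus WT response in all 36. CPM values use TMM factors over the 36 libraries. SEs are the log2 change divided by the square root of F. The script was tested on simulated data.

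The members and lists were chosen with earlier results of these data known. Named were the 10 sites of highest summed rank at 3 h, the largest groups, listed genes, and the 6 rows with the largest falls and rises at each time that passed the test, moved the same way in both replicates and had at least the median level; also rows called in another line, and sites in the pUC19 list. Other E-box types, GCCNNNGGC and further sequences were added after the data were seen. Alternatives were DESeq2 1.42.0 size factors and Wald test, library size alone, no count filter, a replicate block, single libraries left out, and other overlap, window and distance settings. In ALX1FV, ALX1FV ALX4- and PRRX1FV a replicate number is a clone per the labels, so the block pairs samples there; it does not in MSX1FNV, whose replicates share 1 clone label. In those 3 lines correlations of same-numbered deviations ran from 0.0182 (PRRX1FV) to 0.264 (ALX1FV). A few listed genes are not reported here.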

Additional observations from a re-analysis of the deposited data

Results flagged for a closer look

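The H3K27ac response to dTAGV-1 at the sites left differed between the TWIST1FV line and WT by a test of the difference itself (edgeR interaction). The difference passed at 50 rows at 3 h and at 99 rows at 24 h, of 509. The median difference in log2 change was -0.23 and -0.28. At strongest lost sites it passed at 1077 and 1726 of 2445 rows.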

How the results depend on the processing

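With the replicate block the calls at sites left in TWIST1FV were 171 at 3 h and 245 at 24 h, and the interaction with WT gave 109 and 196. The shares of all rows called that are given above belong to the fit without a block. The block counts therefore cannot be set against them. Same-numbered TWIST1FV libraries correlated at 0.0766 to 0.140 in their deviations, not over 0.1 in every pair, so the block counts stand as an alternative. The block gave 3 calls each at 24 h in ALX1FV ALX4- and in MSX1FNV, where the samples share only a number (correlations 0.0779 to 0.0921), and changed no other call count. DESeq2 called 1 row in MSX1FNV at 24 h. With 1 library left out, where the lone sample is assumed to vary like the others, the TWIST1FV counts ranged from 36 to 91 at 3 h and from 67 to 142 at 24 h, the interaction from 28 to 56 and from 57 to 120, ALX1FV ALX4- at 24 h from 0 to 2 and MSX1FNV at 24 h from 0 to 1. Taking 1 replicate's 3 h list alone gave 739 to 835 sites, with shares of 99.0 to 99.7% in WT, 99.0 to 99.6% in ALX1FV ALX4-, 26.8 to 28.3% in RS4;11, 63.5 to 63.7% with AP2a, 34.7 to 37.8% with ALX1 V5 and 11.1 to 15.4% within 50000 bp of another. Reciprocal overlap of 50% left 9.24% in WT, 15.8% in ALX1FV ALX4-, 11.3% in RS4;11 and 28.7% with AP2a. Near a start within 2500 bp were 17.7%, and at a shorter and a longer distance (100000 bp) 4.31% and 14.4% lay in groups. No value reversed. Of 142 alternative H3K27ac counts 126 stayed equal or within 1.5 times. Many of these belong to lines with 0 or 1 call in the main fit, where a repeated 0 was scored as unchanged. Of 60 shares 43 were scored as unchanged, and of 198 values of named rows 182. The cause of each move was not tested. The depth of the peak lists is unknown, so absence from a short list such as PRRX1FV V5 is not detectable as absence of binding.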
